A study of Homo sapiens with 6 samples.

Results

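MicroRNA host genes are long noncoding RNA genes whose primary transcripts carry the hairpins from which microRNAs are cut. The group described here is a fixed list of 10 such hosts: MIR100HG, MIR99AHG, MIRLET7BHG, MIR17HG, MIR22HG, MIR31HG, MIR155HG, MIR210HG, MIR222HG and MIR181A1HG. Members were found in the table of read counts by their Ensembl identifier with the version removed. Of the 10 hosts, 8 had a row among the 27745 genes of the table, and MIR17HG and MIR31HG were not analysed here. The filter on low counts kept 6 of the 8, and MIR99AHG and MIR155HG fell below it. RNA-seq had been performed on MDA-MB-231, an established line of triple-negative breast cancer cells, infected with lentivirus. The virus carried the control construct sh-TRC or either of a pair of hairpins against MIR100HG, sh-MIR100HG-1 and sh-MIR100HG-2. Each group held 2 replicates, collected 72 h after infection according to the methods of the study. The samples are called CTR1 and CTR2, KD1-1 and KD1-2, and KD2-1 and KD2-2. All cells had been infected with lentivirus, so uninfected cells are not part of the comparison. The methods name sh-TRC as the control, and whether it expresses a hairpin is not stated there. The question put to the data was how MIR100HG differed under its shRNAs and whether the other hosts moved with it in the same libraries.

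In the usual route the enzyme DROSHA cuts the hairpin out of the primary transcript in the nucleus, DICER1 trims it in the cytoplasm, and the mature microRNA guides Argonaute to messenger RNAs mainly through its seed. A host transcript can be spliced into a long noncoding RNA of its own while its introns supply the hairpin, and in other hosts the hairpin lies in an exon. The level of a spliced host therefore need not follow the level of its microRNA, and no mature microRNA was measured in these libraries. MIR100HG carries miR-100, let-7a-2 and miR-125b-1, and MIR99AHG carries the paralogous trio miR-99a, let-7c and miR-125b-2. MIR222HG carries miR-221 and miR-222, which are known for targeting the cell cycle inhibitor p27, and MIR210HG carries miR-210, the classical hypoxia microRNA. MIR22HG carries miR-22, MIRLET7BHG carries let-7a-3 and let-7b, MIR155HG carries miR-155 of immune cells, and MIR181A1HG carries miR-181a-1 and miR-181b-1.

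The mature sequences are shown because they tie the hosts to each other: capitals mark the seed, bases 2 to 8 from the 5′ end, and each sequence comes from RefSeq (GRCh38.p14).
hsa-miR-100-5p of MIR100HG: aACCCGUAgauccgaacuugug
hsa-miR-99a-5p of MIR99AHG: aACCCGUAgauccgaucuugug
hsa-miR-125b-5p of MIR100HG and MIR99AHG: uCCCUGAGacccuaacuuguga
hsa-let-7a-5p of MIR100HG and MIRLET7BHG: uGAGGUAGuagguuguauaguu
hsa-let-7c-5p of MIR99AHG: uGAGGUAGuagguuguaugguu
hsa-let-7b-5p of MIRLET7BHG: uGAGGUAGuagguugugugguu
hsa-miR-221-3p of MIR222HG: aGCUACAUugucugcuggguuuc
hsa-miR-222-3p of MIR222HG: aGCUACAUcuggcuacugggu
hsa-miR-181a-5p of MIR181A1HG: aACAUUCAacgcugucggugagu
hsa-miR-181b-5p of MIR181A1HG: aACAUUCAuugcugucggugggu
hsa-miR-22-3p of MIR22HG: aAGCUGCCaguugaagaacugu
hsa-miR-210-3p of MIR210HG: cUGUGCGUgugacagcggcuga
hsa-miR-155-5p of MIR155HG: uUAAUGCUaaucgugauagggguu
The seed of let-7 is shared by MIR100HG, MIR99AHG and MIRLET7BHG, and the seeds of miR-100 and miR-125b are shared by MIR100HG and MIR99AHG. MIR22HG, MIR210HG and MIR155HG, like MIR222HG and MIR181A1HG, have seeds that no other listed host with a row carries among the sequences shown.

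The hosts differ in where the microRNA lies relative to the exons that were counted. Positions are on GRCh37, and exons are the merged blocks deposited with the counts. MIR100HG (ENSG00000255248.7_2) spans chr11:121899035-122427429 on the minus strand with 29 exon blocks of 11009 bases, and miR-100-5p at chr11:122022983-122023004, let-7a-5p at chr11:122017276-122017297 and miR-125b-5p at chr11:121970517-121970538 all lie between blocks. MIR99AHG (ENSG00000215386.11_2) spans chr21:17300616-17999716 on the plus strand, MIR210HG (ENSG00000247095.2_1) chr11:565660-568457 on the minus strand, MIR222HG (ENSG00000270069.1_2) chrX:45604639-45629677 on the minus strand and MIR181A1HG (ENSG00000229989.3_1) chr1:198776622-198906558 on the minus strand. Their microRNAs also lie between counted blocks, as for miR-210-3p at chr11:568112-568133 and miR-222-3p at chrX:45606442-45606462. In MIRLET7BHG (ENSG00000197182.13_2, chr22:46449749-46509808, plus strand), MIR22HG (ENSG00000186594.13_2, chr17:1614787-1620468, minus strand) and MIR155HG (ENSG00000234883.4_2, chr21:26934221-26947480, plus strand) the microRNAs lie inside a counted exon, as for miR-22-3p at chr17:1617208-1617229. The counts of 5 of the 8 hosts therefore hold no base of the microRNA itself. Counted exons of MIR100HG overlap those of BLID, on the same strand, over 83 bases (0.754% of its exon length), those of MIRLET7BHG overlap those of PRR34, on the opposite strand, over 52 bases (0.908%), and the other 6 hosts share no exon base with another gene of the table.

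**Figure D1:**
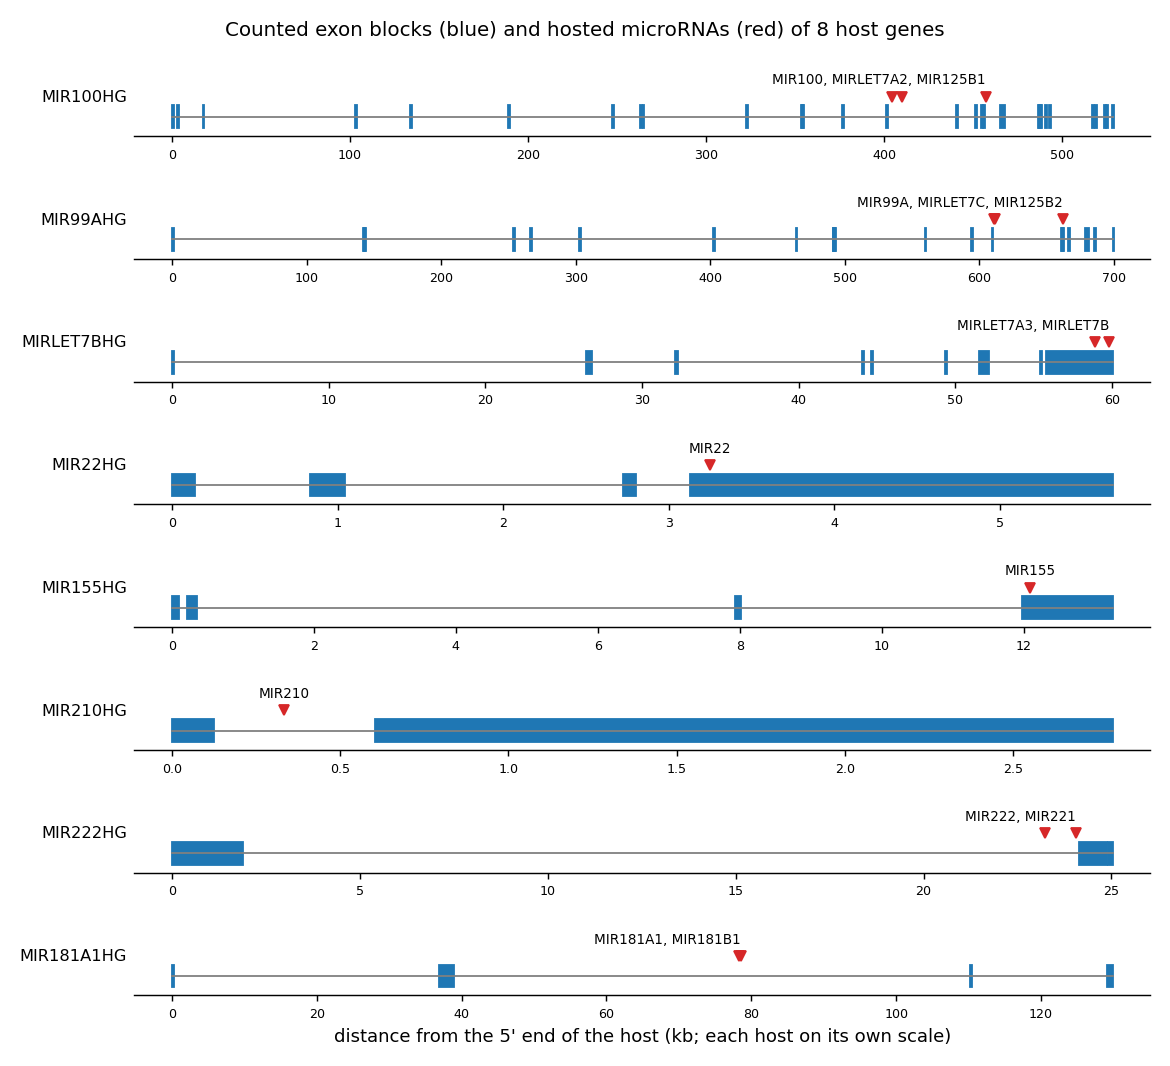
Counted exon blocks and hosted microRNAs of the 8 hosts with a row, each drawn along its own axis in kb from the 5′ end of the host; narrow blocks are widened so that they can be seen, and names are listed in the order of the red marks. The red marks sit over a block in MIRLET7BHG, MIR22HG and MIR155HG and between blocks in the other 5 hosts.

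Total counts ranged from 43804736 to 64588388 per library, so 3 counts, the upper limit that a count of 0 allows, correspond to 0.0452 to 0.0708 CPM (counts scaled to a common library size with the TMM normalization of edgeR); this limit covers counting error only. The libraries differed within the sh-TRC group and between the shRNA groups. The nuclear RNA MALAT1 was at 1617 CPM in CTR1 and 304 CPM in CTR2, at 994 and 1555 CPM in KD1-1 and KD1-2, and at 191 and 350 CPM in KD2-1 and KD2-2. NEAT1, the RNA scaffold of paraspeckles, was at 652, 141, 843, 647, 127 and 130 CPM in the same order. Long noncoding RNAs took 0.591, 0.351, 0.492, 0.509, 0.298 and 0.312% of the counts, and mitochondrial genes took 3.46, 2.41, 3.30, 3.38, 1.52 and 1.84%. CTR1 thus resembled the sh-MIR100HG-1 libraries in these measures and CTR2 resembled the sh-MIR100HG-2 libraries, and the sh-MIR100HG-1 and sh-MIR100HG-2 libraries did not overlap in any of the 4. MALAT1 and NEAT1 were picked after their values had been seen. The line markers VIM and CD44 were high in every library (1607 to 2095 CPM for VIM), PGR did not exceed 0.0236 CPM, ESR1 ranged from 0.12 to 2.79 CPM and ERBB2, the third receptor gene that defines the triple-negative class, from 71.6 to 116 CPM. The leukocyte marker PTPRC ranged from 0.12 to 0.689 CPM and the epithelial marker EPCAM from 4.36 to 12.99 CPM.

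Without regard to the shRNA, the hosts covered a wide range of levels. Per kb of exon (RPKM), MIR22HG was the most abundant, with 12.3 RPKM in CTR1 and 7.57 RPKM in CTR2, and it was above every other host in all 6 libraries. MIR100HG followed with 3.80 and 5.32 RPKM and MIR222HG with 5.43 and 2.91 RPKM, and the ranges of these neighbours overlapped, so their order was not resolved. MIR210HG was at 2.62 and 2.17 RPKM, MIRLET7BHG at 0.341 and 0.395 RPKM and MIR181A1HG at 0.263 and 0.0314 RPKM, each with control values below those of the host before it. MIR22HG ranked at place 23, MIR100HG at place 65 and MIRLET7BHG at place 573 among the 1106 long noncoding RNAs tested. Without division by exon length MIR100HG, which has the longest counted exons, came first.

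**Figure D2:**
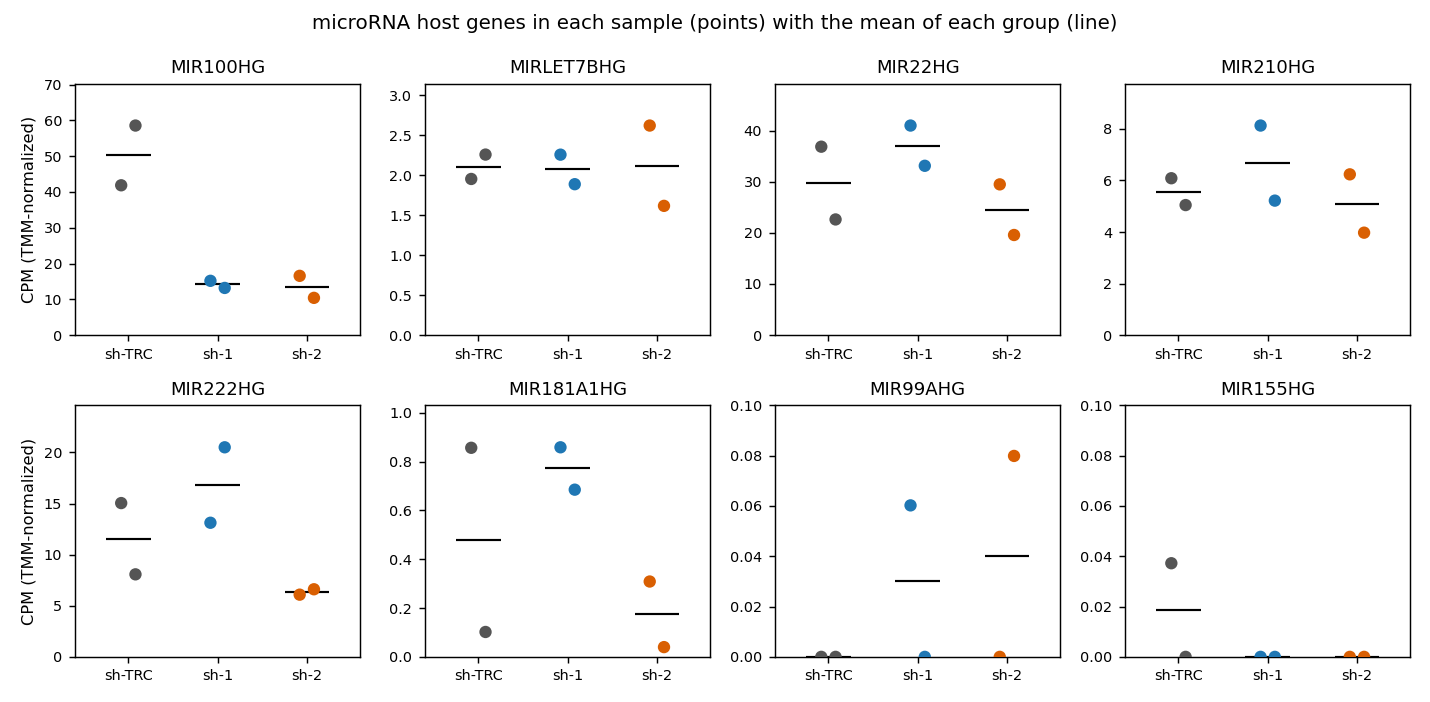
Level of each of the 8 hosts in CPM (linear axes from 0, each panel with its own scale), with 1 point per sample, grouped by shRNA (sh-1 is sh-MIR100HG-1, sh-2 is sh-MIR100HG-2), and lines at the mean of the 2 samples. Only for MIR100HG do all 4 shRNA samples (10.4 to 16.6 CPM) lie below both controls (41.9 and 58.5 CPM).

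MIR100HG, the targeted gene, was lower in every shRNA library. CTR1 and CTR2 held 41.9 and 58.5 CPM, the sh-MIR100HG-1 libraries 15.2 and 13.2 CPM, and the sh-MIR100HG-2 libraries 16.6 and 10.4 CPM (2248, 3445, 1007, 558, 751 and 521 counts). All 4 shRNA libraries lay below both controls, which 9.08% of the 15372 genes tested also did, and the gap was wider than the spread within any group, where replicates differed by at most 1.59-fold. The fitted log2 fold change (log2FC) of both shRNAs against sh-TRC was -1.86 with a standard error of 0.249 (95% interval -2.43 to -1.29), a level 3.63-fold lower, at an unadjusted p of 5.6e-05 in edgeR's quasi-likelihood test, the second smallest of all genes. After Benjamini-Hochberg adjustment over all genes p was 0.381, so the difference did not pass 0.05. In bulk RNA a lower level in every cell and a larger share of cells with a low level cannot be told apart. That test called 0 genes (0.0%) in each comparison, against 1180 (7.68%) at an unadjusted p under 0.05 in this one, 4.44% in the direction of MIR100HG, where the likelihood ratio test of edgeR called 109 and DESeq2 called 124 at the adjusted threshold. For MIR100HG the adjusted p was 1.21e-06 in the likelihood ratio test, 5.64e-07 in DESeq2 and 2.77e-10 in edgeR's quasi-likelihood test without the filter on low counts, and it ranged from 2.77e-10 to 0.933 over all settings tried.

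The shRNAs could not be separated by their level of MIR100HG. With sh-MIR100HG-1 the log2FC against sh-TRC was -1.82 (standard error 0.308), and with sh-MIR100HG-2 it was -1.90 (0.309). Both libraries of each shRNA lay below both controls, as did 20.2% and 20.4% of all genes, and the shares of genes lower at an unadjusted p under 0.05 were 3.77% and 5.15%. Their direct comparison gave a log2FC of -0.07, with a 95% interval of -0.76 to 0.62. Both 21-base target sequences were found with 0 mismatches in MIR100HG, at chr11:121962132-121962152 and chr11:121961961-121961981. Both sites lie in exon block 11 as counted from the lower coordinate. On this minus-strand host that block lies 464.981 to 467.618 kb from the 5′ end. The hosted microRNAs lie nearer the 5′ end, at 404.4 to 456.9 kb. The targets are printed in the sense of the transcript with the site of the guide's own seed in capitals.
sh-MIR100HG-1 target: ttcctctgtttgtACTTAAAt
sh-MIR100HG-2 target: gagagtgacctacAGAATAAa
In the exons of the other 7 hosts the best match to either target had 7 to 9 mismatches.

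The other tested hosts gave no such gap between shRNA and control libraries. MIRLET7BHG was at 1.95, 2.26, 2.26, 1.89, 2.62 and 1.62 CPM in CTR1, CTR2, KD1-1, KD1-2, KD2-1 and KD2-2, with both controls inside the range of the shRNA libraries. Its log2FC against sh-TRC was -0.01 (95% interval -0.86 to 0.84). It is the host that shares the let-7 seed with MIR100HG, and 105, 133, 150, 80, 119 and 81 counts stand behind these values. The interval does not reach the log2FC fitted for MIR100HG.

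MIR22HG was at 36.8, 22.6, 41.0, 33.1, 29.5 and 19.6 CPM in the same order of libraries, and MIR210HG was at 6.09, 5.05, 8.13, 5.22, 6.24 and 3.98 CPM. In both hosts the control values fell inside the range of the shRNA libraries. The log2FC of both shRNAs against sh-TRC was 0.02 (-0.61 to 0.65) for MIR22HG and 0.07 (-0.67 to 0.81) for MIR210HG, with adjusted p of 0.992 and 0.976. For the hypoxia genes that are regulated with miR-210 in other settings, 0 of 15 tested passed an unadjusted p of 0.05 in this comparison, beside 7.68% of all genes, and their median log2FC was 0.08 beside -0.04 over all genes. The members with the smallest p were PDK1, a kinase that restrains pyruvate oxidation, at a log2FC of 0.23 (-0.23 to 0.69), and EPAS1, the HIF-2 alpha subunit, at -0.20 (-0.70 to 0.31). With either shRNA alone against sh-TRC 0 of the 15 passed as well. Their log2FC ranged from -1.28 to 0.488 with sh-MIR100HG-1 and from -0.36 to 1.01 with sh-MIR100HG-2. Between the shRNAs the range was -0.742 to 2.29. There 1 gene was higher and 1 lower at an unadjusted p under 0.05 (13.3%, beside 9.45% of all genes).

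The values of MIR222HG lay further apart between the shRNAs than between shRNA and control. CTR1 and CTR2 held 15.04 and 8.07 CPM, KD1-1 and KD1-2 held 13.1 and 20.5 CPM, and KD2-1 and KD2-2 held 6.08 and 6.61 CPM. The sh-MIR100HG-2 libraries were below all other libraries, and the sh-MIR100HG-1 libraries overlapped the controls. The log2FC was -0.16 (-0.88 to 0.56) for both shRNAs together, 0.54 (-0.30 to 1.38) with sh-MIR100HG-1 and -0.86 (-1.71 to -0.02) with sh-MIR100HG-2, the last with an adjusted p of 0.558 in edgeR's quasi-likelihood test (0.0468 before adjustment). Without CTR1 the last value was -0.35, and without CTR2 it was -1.24.

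In the direct comparison of sh-MIR100HG-2 with sh-MIR100HG-1, MIR222HG had a log2FC of -1.40 with a standard error of 0.374 (95% interval -2.26 to -0.55), at place 130 by p of 15372 genes. The unadjusted p was 0.00519, in a comparison where 6.12% of all genes were lower at an unadjusted p under 0.05. After adjustment p was 0.509, so the difference did not pass. Both sh-MIR100HG-2 libraries lay below both sh-MIR100HG-1 libraries, as for 23.3% of all genes. Over the settings tried the adjusted p ranged from 0.0032, without the filter on low counts, to 0.802. MALAT1 had a log2FC of -2.24 (standard error 0.675) and NEAT1 of -2.54 (0.591) in the same comparison, both lower in the sh-MIR100HG-2 libraries, and the controls themselves differed 1.86-fold in MIR222HG. The part of these library differences in the MIR222HG values was not tested. The guide seed site of sh-MIR100HG-2 (AGAATAA, searched on the transcript strand) occurred 2 times in the exons of MIR222HG. At least 2 such sites occur in 3.44% of the 2007 genes whose exon length is within 10% of its own, and 27.1% of all genes hold at least 1. These genes are matched by length and not by base composition, and the site is mostly A and T. The exons of MIR222HG hold 36.3% G and C, beside 38% in MIR181A1HG, 50.4% in MIR22HG and 63.6% in MIRLET7BHG. The part of base composition in the number of sites was not tested. AGAATAA occurred 0 times in MIR22HG and MIR181A1HG, which were also lower in the sh-MIR100HG-2 libraries, and 0 times in MIRLET7BHG and MIR210HG. It occurred 3 times in MIR100HG and 3 times in MIR99AHG. The site of sh-MIR100HG-1 (ACTTAAA), held by 23.1% of all genes, occurred 0 times in MIR222HG and 1 time each in MIR181A1HG and MIR99AHG. Such a match is a description of the sequence and not a measured effect.

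MIR181A1HG was the least abundant tested host and the most variable. Its 46 and 6 counts in the controls, 57 and 29 with sh-MIR100HG-1 and 14 and 2 with sh-MIR100HG-2 correspond to 0.856, 0.102, 0.858, 0.685, 0.309 and 0.040 CPM. CTR1 was 8.40-fold above CTR2, so the controls spanned nearly the whole range of the shRNA libraries. The log2FC against sh-TRC was -0.38 (-2.40 to 1.64), and between the shRNAs it was -2.16 (-4.65 to 0.34) at an adjusted p of 0.555. With CTR1 left out the log2FC against sh-TRC became 1.82, and with CTR2 left out it became -1.22. Without KD2-1 it was -1.40 and without KD2-2 it was 0.037.

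**Figure D3:**
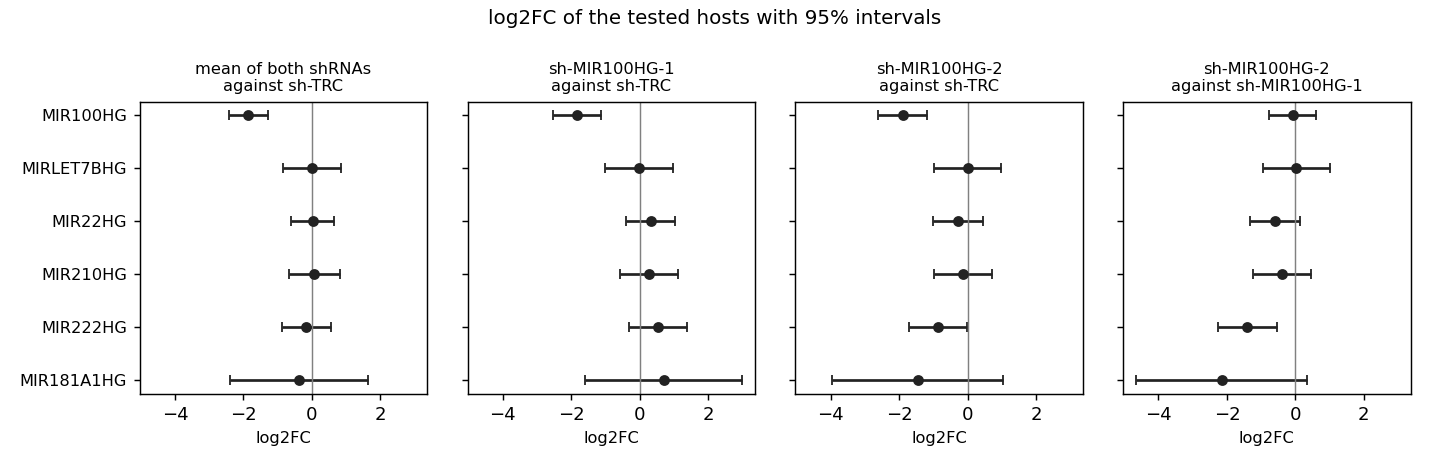
Log2FC (points) with 95% intervals (bars) of the 6 tested hosts in the 4 comparisons, from edgeR's quasi-likelihood fit of all 6 samples. MIR100HG lies at -1.86, -1.82 and -1.90 against sh-TRC, and the interval of MIR222HG excludes 0 in the comparison between the shRNAs (-2.26 to -0.55) and, narrowly, for sh-MIR100HG-2 against sh-TRC (-1.71 to -0.02).

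MIR22HG, MIR222HG and MIR181A1HG shared a pattern over libraries that crossed the groups. Each was higher in CTR1, KD1-1 and KD1-2 than in CTR2, KD2-1 and KD2-2, the same libraries that were high in MALAT1, NEAT1, long noncoding RNA and mitochondrial counts. On the log2 scale over the 6 libraries Pearson's r was 0.98 between MIR22HG and MIR181A1HG, 0.79 between MIR222HG and MIR181A1HG and 0.70 between MIR22HG and MIR222HG. The corresponding values for MIR100HG with the other hosts were 0.01 to 0.31. These are descriptions over 6 points that share libraries and scaling. Since both sh-MIR100HG-1 libraries were on the high side and both sh-MIR100HG-2 libraries on the low side, the shRNA and this difference between libraries cannot be told apart for the 3 hosts.

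**Figure D4:**
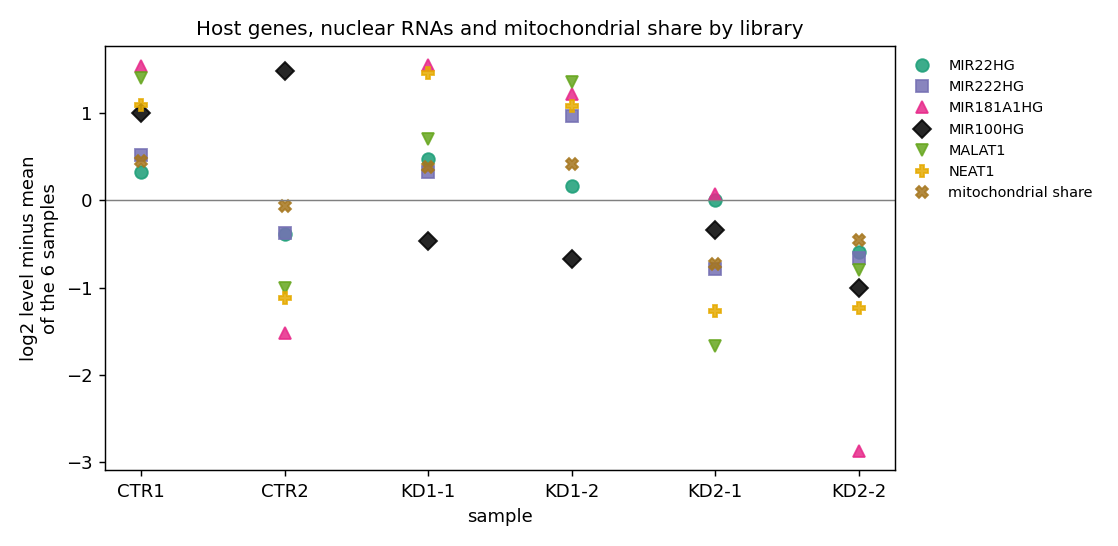
Log2 level minus the mean of the 6 samples (vertical axis) of 4 hosts, of MALAT1 and NEAT1 (all from CPM) and of the mitochondrial share of counts, by sample. MIR22HG, MIR222HG and MIR181A1HG are higher in CTR1, KD1-1 and KD1-2 than in the other 3 samples, as are MALAT1, NEAT1 and the mitochondrial share, and MIR100HG is highest in CTR1 and CTR2.

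Setting MIR100HG beside the other hosts within each library removes most of the scaling of the library. The 0.1 RPKM added to each value leaves a part of it and weighs most for MIR181A1HG, at 0.0123 to 0.264 RPKM. The log2 ratio of MIR100HG to MIRLET7BHG (RPKM with 0.1 added to both) was 3.14 and 3.45 in CTR1 and CTR2 and 1.58, 1.59, 1.52 and 1.45 in KD1-1, KD1-2, KD2-1 and KD2-2. The mean difference between shRNA and control samples was -1.76, and it was -1.82 for the ratio to MIR22HG, -1.82 to MIR210HG, -1.67 to MIR222HG, -1.81 to MIR181A1HG and -1.75 to the median of the 5 other hosts. All 4 shRNA samples lay below both controls in each of the 6 ratios. The 6 ratios share MIR100HG, itself lower in every shRNA library, so they are not separate results. The closest approach was in the ratio to MIR222HG, where CTR1 stood at -0.50 and KD2-1 at -0.52. The two-sided exact permutation test over 15 splits gave p = 0.0667, the smallest p this design allows, for 5 ratios (0.08 after adjustment over the 6) and p = 0.133 for the ratio to MIR222HG, so no ratio could pass 0.05.

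**Figure D5:**
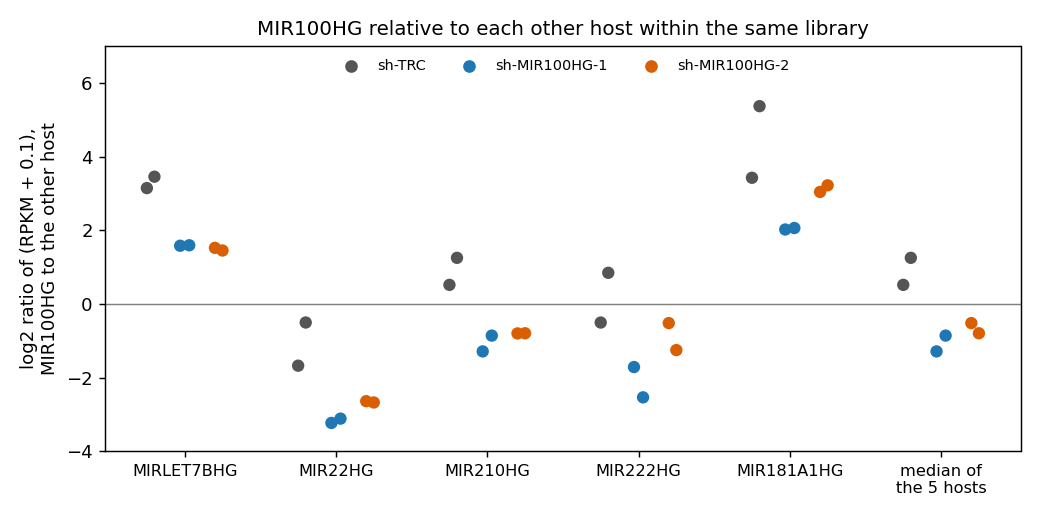
Log2 ratio of MIR100HG to each other tested host within a library (RPKM with 0.1 added to both), and to the median of the 5 hosts, with 1 point per sample coloured by shRNA. All shRNA points lie below both sh-TRC points in each column, by the least in the column of MIR222HG (-0.52 in KD2-1 against -0.50 in CTR1).

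Of the counts assigned to the 8 hosts, MIR100HG took 40.8% in CTR1 (95% Wilson interval 39.5 to 42.1%) and 60.6% (59.3 to 61.8%) in CTR2. With sh-MIR100HG-1 the share was 18.8 and 17.7%, and with sh-MIR100HG-2 it was 27.0 and 24.6%. MIR22HG took 35.9 and 23.4% in the controls and 44.4 to 50.9% in the shRNA libraries, and so it was the largest part of the host counts in each shRNA library. A share moves with all of its parts, and these intervals cover counting error only.

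MIR99AHG and MIR155HG were at or near the limit of detection. MIR99AHG, the paralogue that carries the same 3 seeds as MIR100HG, had 4 counts in KD1-1, 4 in KD2-2 and 0 in the other libraries, where a count of 0 allows up to 0.0558 CPM in CTR1 and 0.051 CPM in CTR2. The 8 counts over all libraries have an exact Poisson interval of 3.45 to 15.8. MIR155HG had 2 counts in CTR1 and 0 elsewhere. No fold change was computed for either. Among 13 tested genes of the NF-kB and AP-1 program, which drives MIR155HG in immune cells, 3 were higher and 0 lower at an unadjusted p under 0.05 (3.23% of all genes were higher), and 0 passed adjustment. Of the 13, 9 had a positive and 4 a negative log2FC, down to -1.73, with a median of 0.075 beside -0.036 over all genes. The members with the smallest p were ETS1, a transcription factor, at a log2FC of 0.77 (0.35 to 1.19) and ICAM1, an adhesion molecule, at 1.004 (0.34 to 1.67). ICAM1 was at 239 and 265 CPM in the controls, 215 and 363 CPM under sh-MIR100HG-1 and 1102 and 662 CPM under sh-MIR100HG-2.

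The remaining annotated long noncoding microRNA hosts were read in the same way. Of 75 listed, 55 had a row, 17 of these had 0 counts in all libraries and 20 were tested. None of the 20 passed adjustment in edgeR's quasi-likelihood test and 0 had an unadjusted p under 0.05 in the comparison of both shRNAs with sh-TRC, where 7.68% of all genes did. Their median log2FC was -0.29, beside -0.04 over all genes, with 7 positive and 13 negative, beside 7017 and 8355 over all genes. The smallest p belonged to MIR34AHG, host of the p53-induced miR-34a, with 0.726 and 1.26 CPM in the controls, 0.301 and 0.378 CPM under sh-MIR100HG-1 and 0.353 and 0.999 CPM under sh-MIR100HG-2 (log2FC -1.05, -2.29 to 0.20). MIR29B2CHG, host of miR-29b-2 and miR-29c, was next by p with a log2FC of -1.02 (-2.24 to 0.19), and MIR137HG, host of miR-137, came after it with -0.47 (-1.13 to 0.19). The abundant MIR4435-2HG, at 94.4 to 174 CPM, had a log2FC of 0.35 (-0.19 to 0.89). With sh-MIR100HG-1 alone 1 of the 20 was lower at an unadjusted p under 0.05 (5%, beside 3.77% of all genes). This was MIR34AHG, at -1.55 (-0.55 with sh-MIR100HG-2). With sh-MIR100HG-2 alone 2 were lower (10%, beside 5.15%), MIR29B2CHG at -2.21 and MIR137HG at -0.80. With sh-MIR100HG-1 these stood at 0.16 and -0.14. Between the shRNAs 1 was higher and 2 lower (15%, beside 9.45%).

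MIR29B2CHG and MIR23AHG, host of the cluster of miR-23a, miR-27a and miR-24-2, varied over the libraries as MIR222HG did. MIR29B2CHG was at 26.9, 4.98, 18.5, 17.1, 4.14 and 2.76 CPM in CTR1, CTR2, KD1-1, KD1-2, KD2-1 and KD2-2. MIR23AHG was at 22.7, 7.32, 25.2, 40.7, 7.21 and 13.5 CPM. Both were higher in CTR1 and the sh-MIR100HG-1 libraries than in the other libraries. Between the shRNAs the log2FC was -2.37 (-3.90 to -0.84) for MIR29B2CHG and -1.67 (-2.91 to -0.43) for MIR23AHG, each at an adjusted p of 0.509 in edgeR's quasi-likelihood test.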

How the data were processed

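The authors deposited raw counts per gene, without normalization, and the exon length of each gene, both from featureCounts on GRCh37 with a GENCODE annotation; the processing notes name STAR 2.5.2a and the methods another STAR version. Strandedness of counting is not given in the sources used here. Counts were not changed before testing. A gene was dropped where 3 or more of the 6 samples had fewer than 5 counts (15372 of 27745 kept). The 3 groups entered a single edgeR 4.0.16 model (R 4.3.3, TMM, quasi-likelihood test, 3 residual degrees of freedom, no covariate), with Benjamini-Hochberg adjustment over all tested genes and a threshold of 0.05. Intervals are 95%. CPM uses TMM-scaled totals, and RPKM divides it by the deposited length in kb. Correlations used log2(CPM + 0.125). MicroRNA positions are exact matches of RefSeq mature sequences to GRCh37. DESeq2 1.42.0, the likelihood ratio test, RLE scaling, no filter, the other quasi-likelihood form, a replicate block and leaving out each sample were tried. Scripts were tested on simulated data.

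The study's legend calls the replicates of each MIR100HG shRNA biological and does not mention those of sh-TRC. No culture is named, so p-values measure the spread between these samples. No pair of replicates agreed within counting error (71.1 to 74.3% of genes differed by more than 2 SD). The common biological coefficient of variation was 27.8%. Members and gene lists were chosen with earlier results of these data known. Named besides the members are, from each list, the genes with the smallest p in the comparison of both shRNAs with sh-TRC, the most abundant other hosts, the nearest protein-coding neighbours and the 5 genes most like MIR100HG over the samples. Symbols came from GENCODE release 44 on the same build (26966 genes matched).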

Additional observations from a re-analysis of the deposited data

How the results depend on the processing

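Limits: 2 samples per group, 0 genes called at an adjusted p of 0.05 in any comparison by the main test, and few counts for MIR181A1HG, MIR99AHG and MIR155HG. The number of genes called for both shRNAs, sh-MIR100HG-1 and sh-MIR100HG-2 against sh-TRC and for the shRNAs against each other was 109, 34, 121 and 91 in the likelihood ratio test, 124, 58, 157 and 94 in DESeq2 and 392, 227, 517 and 679 without the filter. It was 0 with RLE scaling and the other quasi-likelihood form. Leaving out a sample gave 0, 0 to 3 (3 without CTR1), 0 to 4 (4 without CTR2) and 0 to 7 (6 without CTR1, 7 without CTR2). MIR100HG kept its direction against sh-TRC in every setting, from -2.08 to -1.60 for both shRNAs when a sample was left out, and its ratio to the median of the other hosts from -2.12 to -1.38. By CPM it took place 1 among the hosts, in place of 2 by RPKM, since its exons are the longest. MIRLET7BHG, near 0 in every comparison, turned sign for both shRNAs in DESeq2 (0.011) and with RLE scaling (0.011). Leaving out a sample turned the sign of 14 of the 24 log2FC results, the cause of which was not tested, with ranges for both shRNAs of -0.201 to 0.139 for MIRLET7BHG, -0.29 to 0.414 for MIR22HG, -0.111 to 0.211 for MIR210HG, -0.543 to 0.355 for MIR222HG and -1.403 to 1.817 for MIR181A1HG. For sh-MIR100HG-1 the ranges were -0.158 to 0.091 for MIRLET7BHG, -0.093 to 0.54 for MIR210HG and -0.146 to 2.895 for MIR181A1HG. For sh-MIR100HG-2 they were -0.381 to 0.308 for MIRLET7BHG, -0.603 to 0.117 for MIR22HG, -0.485 to 0.159 for MIR210HG and -3.502 to 0.74 for MIR181A1HG. Between the shRNAs they were -0.359 to 0.338 for MIRLET7BHG and -0.446 to 0.225 for MIR100HG. In the fits without a sample, the lone sample of a group is assumed to vary like the other groups.

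Same-numbered samples deviated together between the shRNA groups (correlation 0.497) but not between sh-TRC and sh-MIR100HG-1 (-0.213) or sh-MIR100HG-2 (0.022), so the numbers were not shown to pair the samples over all 3 groups. With the replicate block 0 genes were called in each comparison, and the log2FC of MIR100HG for both shRNAs was -1.88 at an adjusted p of 0.157 in edgeR. The block turned MIRLET7BHG under sh-MIR100HG-2 from 0.008 to -0.028. A block with the control numbers crossed, chosen after seeing the data, called 0 genes and gave -0.021 there.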

Other observations

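Protein-coding genes that carry microRNAs in their introns were read beside the long noncoding hosts. Of 43 tested, 3 were higher and 2 lower at an unadjusted p under 0.05 in the comparison of both shRNAs with sh-TRC (11.6%, beside 7.68% of all genes), 0 passed adjustment in edgeR's quasi-likelihood test, and the median log2FC was 0.005. COPZ2, the coatomer subunit gene that hosts miR-152, was at 8.73 and 8.27 CPM in the controls, 5.72 and 5.81 CPM under sh-MIR100HG-1 and 3.33 and 3.70 CPM under sh-MIR100HG-2 (log2FC -0.92, standard error 0.245). All 4 shRNA libraries lay below both controls, as for 9.08% of all genes. The pantothenate kinase genes PANK3 and PANK1, hosts of miR-103a-1 and miR-107, had a log2FC of 0.69 (0.19 to 1.19) and 0.72 (0.19 to 1.25). PANK1 was at 7.67 and 7.60 CPM in the controls and at 11.3 to 13.5 CPM in the shRNA libraries.

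Among 17 tested protein-coding neighbours of the hosts, 2 had an unadjusted p under 0.05 and both were lower (11.8%, beside 4.44% of all genes lower and 7.68% in either direction): SORL1, a sorting receptor gene beside MIR100HG (log2FC -0.58, -1.08 to -0.08), and PTPRC beside MIR181A1HG, at 0.12 to 0.689 CPM (log2FC -1.44, -2.62 to -0.26). UBASH3B, on the other side of MIR100HG, had a log2FC of 0.02 (-0.41 to 0.45). BLID, which overlaps MIR100HG, stayed below 0.28 CPM in every library. The genes whose log2 levels over the 6 samples were most like those of MIR100HG were DDX60, RCN3, COL15A1, P2RX6 and MYL6B (Pearson's r 0.985 to 0.989 over 6 samples, with 51 genes above 0.95). DDX60, an interferon-induced helicase gene, was at 231 and 300 CPM in the controls and 90.4 to 146 CPM in the shRNA libraries.

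The lists of regulators gave few genes at an unadjusted p under 0.05, and 0 passed adjustment in edgeR's quasi-likelihood test. Over all genes 4.44% were lower and 3.23% higher at that level. Of 9 MYC and E2F genes 1 was lower (11.1%), E2F2 (log2FC -0.97, -1.92 to -0.01), and E2F3 had a log2FC of 0.41 (-0.01 to 0.83). The E2F2 values of shRNA and control libraries overlapped. They were 6.44 and 13.3 CPM in the controls, 7.33 and 2.98 CPM under sh-MIR100HG-1 and 5.58 and 4.27 CPM under sh-MIR100HG-2. Of 12 p53 and stress genes 2 were higher (16.7%), BBC3, which encodes the pro-apoptotic PUMA (0.75, 0.28 to 1.22), and HMOX1, heme oxygenase (0.82, 0.11 to 1.52). Of 9 interferon-response genes 2 were lower (22.2%), ISG15 (-0.87, -1.39 to -0.35) and MX1 (-1.18, -2.22 to -0.14), and all 9 had a negative log2FC, as did 8355 of the 15372 genes tested. With sh-MIR100HG-1 alone 5 of the 9 (55.6%) were lower at that level, beside 3.77% of all genes, and the median log2FC was -0.76. With sh-MIR100HG-2 alone 1 was lower (11.1%), beside 5.15% of all genes, 2 had a positive log2FC and the median was -0.15. Both comparisons share the sh-TRC samples. MX1 was at 98.1 and 363 CPM in the controls, 43.0 and 47.5 CPM under sh-MIR100HG-1 and 303 and 155 CPM under sh-MIR100HG-2.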
